A study of Mus musculus with 12 samples.

Results

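The genes described here are 10 that mark macrophages living in tissues: C1qa, C1qb, C1qc, Csf1r, Emr1, Cd68, Mrc1, Cd163, Fcgr3 and Tyrobp. They are 10 of 27806 gene names on the array, and every probe that the array's design assigns to one of these names was taken. That gave 14 probes, of which 13 passed the filter on dim spots that left 30450 of 41174 probes. Csf1r had 3 probes, Emr1 and Fcgr3 had 2 each, and the other genes had 1 each. All 10 genes kept at least 1 probe, and the probe left out was the second of Emr1, whose forestomach signal was well above background on 1 of 8 arrays.

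The samples were whole forestomachs of adult wild-type C57BL/6J mice, the squamous upper part of the rodent stomach, hybridised to 12 two-colour Agilent arrays in 3 groups of 4. Control mice drank a sweetened solution called supersaccharin with 0% alcohol. Mice of the 4-week group were given 20% alcohol in supersaccharin. Mice of the 40-week group were given 15% alcohol, and supersaccharin is not named for them. The labels give no time for the controls, and the same 4 controls serve both alcohol groups. The forestomach RNA was always in the Cy5 channel. Cy3 always held a commercial pool that serves as a common standard, the Universal Mouse Reference RNA of Agilent, so dyes were never swapped. The question is whether alcohol drinking changes gene expression in the forestomach. Nothing says whether each replicate was its own animal, and p-values cover sample-to-sample spread that may be technical in part.

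C1q is the recognition molecule of the classical complement pathway: it binds antibody complexes and dying cells and starts the cascade. It is assembled from A, B and C chains, each made by its own gene, and in most tissues macrophages and dendritic cells are its main source. Resident macrophages depend on signalling through the CSF1 receptor, take up debris through scavenger receptors, degrade it in lysosomes, and sense immune complexes through Fc receptors that signal with small adaptor proteins.

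The C1q genes lie side by side on chromosome 4. On GRCm38.p6 in the RefSeq gene table, C1qb spans 136880126 to 136886200, C1qc 136889801 to 136892936 and C1qa 136895916 to 136898844, so the 3 genes fit in 18719 bases. The array probes of C1qa and C1qb are shown because their signals moved together from array to array, as described further on, so how far the 2 probes resemble each other matters. On mouse build mm9, per the scanner files, the C1qa probe lies at chr4:136452409-136452468 and the C1qb probe at chr4:136436578-136436637, both on the minus strand. Capitals mark the bases that are identical in the best ungapped overlap of at least 30 bases.
C1qa probe: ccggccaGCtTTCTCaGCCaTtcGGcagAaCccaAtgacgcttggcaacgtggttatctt
C1qb probe: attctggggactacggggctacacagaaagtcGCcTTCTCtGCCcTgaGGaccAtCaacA
In that overlap 16 of 35 bases matched, which is 45.7%, and the longest shared run was 5 bases. The C1qc probe lies between them at chr4:136445766-136445825.

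The promoters of C1qb and C1qc are shown because these neighbouring genes varied differently between samples. Both come from the RefSeq promoter table on GRCm38.p6, minus strand, cut at the gene's first base. Capitals mark GAGGAA, the core of sites for PU.1, a transcription factor of the macrophage lineage, or its complement TTCCTC, and TGCTGA, a partial recognition site of MAF factors. Both strands were searched and no matches overlapped.
C1qb promoter, chr4:136886201-136886450: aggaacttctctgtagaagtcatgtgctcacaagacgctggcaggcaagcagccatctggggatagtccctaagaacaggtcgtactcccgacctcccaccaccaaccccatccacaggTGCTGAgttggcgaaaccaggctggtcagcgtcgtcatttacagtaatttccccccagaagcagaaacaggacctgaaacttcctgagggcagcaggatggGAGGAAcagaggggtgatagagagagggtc
C1qc promoter, chr4:136892937-136893164: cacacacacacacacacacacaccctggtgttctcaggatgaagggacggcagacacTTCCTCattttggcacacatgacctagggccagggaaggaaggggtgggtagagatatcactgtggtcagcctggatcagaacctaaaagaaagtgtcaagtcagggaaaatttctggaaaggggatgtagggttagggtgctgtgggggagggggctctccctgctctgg
The C1qb window holds both motifs and the C1qc window only the PU.1 core. Of 32851 promoter windows in the table, 23.3% held the PU.1 core and 16.1% the MAF site over 250 bases, and 21.2% and 14.8% did over 228 bases. Of the 10 genes, 6 had a promoter entry in the table, with 7 entries in all. The PU.1 core was in the entries of all of these genes but Cd163, and the MAF site in those of C1qb and Fcgr3, whose 2 entries overlap and share their sites.

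Each of the 8 arrays with scanner files, those of the 4-week and control groups, had 64.8% to 78.8% of probes well above background in Cy5 and 72.9% to 84.9% in Cy3, and none saturated. The 4-week arrays shared 1 slide and scan and the control arrays another, so slide and treatment cannot be told apart. The squamous keratin Krt4 had deposited log2 ratios of 6.20 to 6.85 in control samples, 4.50 to 5.21 in 4-week samples and 3.29 to 3.89 in 40-week samples, so the labelled tissue was present throughout. Transcripts of other organs stood high on 3 arrays: pancreatic acinar genes on control replicate 3, and glandular stomach genes on 4-week replicate 2 and control replicate 4. Control replicate 1, which was not left out with those 3, had the acinar gene Cpa1 at a deposited log2 ratio of 3.44. Cpa1 was at 5.88 in control replicate 3 and at most 0.79 in all other samples. Adipocyte genes were low on 4-week replicate 3 and control replicate 1, and the adipocyte gene Adipoq had a deposited log2 ratio of -1.37 in 40-week replicate 2, against 3.096 to 3.867 in the other 40-week samples. Of the 40-week samples, replicates 3 and 4 had Eif2s3y, a gene of the Y chromosome, at -5.67 and -6.28, against 2.61 to 3.17 in the other 10 samples. In whole tissue, fewer macrophages and less RNA per macrophage cannot be told apart.

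After 4 weeks of 20% alcohol the Cy5 over Cy3 ratio of C1qc was lower than in controls, and it was the 1 member probe of 13 that passed the test. C1qc encodes the C chain of C1q. Its log2 ratio, from scanner signals after background correction and within-array loess, was 3.74, 3.18, 3.55 and 3.21 in 4-week samples, against 4.60, 4.47, 4.72 and 4.29 in control samples. Every 4-week value lay below every control value. The means were 3.42 ± 0.27 in 4-week samples and 4.52 ± 0.18 in control samples (SD, n = 4 each), a log2 change of -1.10 ± 0.16 (SE), or 2.15-fold lower, with limma's adjusted p = 0.0396. Over all kept probes 230 of 30450 passed, 55 higher and 175 lower, so percent called was 0.755%, with 0.575% lower. The C1qc call was lost when any 1 of the 8 arrays was left out, with adjusted p between 0.0671 and 0.118 and log2 changes between -1.21 and -1.02. It was also lost with a smaller background offset, with median centring, with arrays scaled to 1 spread and without the arrays that stood apart, with adjusted p between 0.0502 and 0.302.

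The forestomach channel and the common channel of C1qc behaved differently. In Cy5 alone, normalised between arrays, the log2 signal of C1qc was 12.59, 11.74, 12.08 and 12.14 in 4-week samples, against 12.35, 11.58, 11.96 and 12.21 in control samples. These groups overlapped, and the change was 0.11 ± 0.22 with adjusted p = 0.835. In Cy3 alone, which held the same commercial RNA on every array, C1qc was 9.995, 9.82, 9.72 and 10.05 in 4-week samples, against 8.86, 8.43, 8.68 and 9.15 in control samples. All 4-week values were higher here, by 1.12 ± 0.14, or 2.17-fold, with adjusted p = 0.00306. The Cy3 signal above local background, before any normalization, was 901, 848, 683 and 828 intensity units on 4-week arrays, against 491, 302, 364 and 556 on control arrays. The Cy5 signal above local background, before any normalization, was 1868 to 5190 intensity units on 4-week arrays, against 4416 to 6108 on control arrays. These ranges overlapped, with a lower mean on 4-week arrays (3677.5 against 5325). The median Cy5 signal over all spots was also lower on every 4-week array than on any control array. The lower ratio of C1qc thus went with a higher Cy3 signal, while its Cy5 signal after normalization between arrays did not pass the test. Over 18 settings, among them another scaling between arrays, the Cy5 change of C1qc lay between -0.037 and 0.303. Limma's adjusted p was then 0.578 to 0.958, so it passed in none of them. The Cy5 signal before any normalization was not tested. Squamous epithelium genes, which have high Cy5 over Cy3 ratios in this tissue, were higher in Cy3 too, 12 of 14 passing the test with a median log2 change of 1.02. So were smooth muscle genes, with 9 of 10 passing and a median of 0.74. Over all genes the median Cy3 change was -0.03. The part of these Cy3 differences in the C1qc ratio was not tested further.

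C1qa and C1qb encode the A and B chains. The log2 ratio of C1qa was 3.77, 3.76, 4.22 and 3.77 in 4-week samples, against 3.17, 4.43, 5.34 and 4.99 in control samples. C1qb had ratios of 3.95, 3.70, 4.08 and 3.66 in 4-week samples, against 3.41, 4.42, 5.04 and 4.89 in control samples. In both genes control replicate 1 lay below all 4-week samples and the other controls above them, so the groups overlapped. The 13 adipocyte genes measured summed to 74110 intensity units in Cy5 on control replicate 1, against 347300 to 461700 on the other control arrays, and the part of this difference was not tested. The changes were -0.60 ± 0.41 for C1qa and -0.59 ± 0.32 for C1qb, with adjusted p = 0.479 and 0.379. The Cy5 signal alone changed by 0.03 ± 0.43 for C1qa and 0.05 ± 0.33 for C1qb, both short of the threshold. In Cy3, C1qb was higher by 0.61 ± 0.15 with adjusted p = 0.0422. C1qa was at 0.62 ± 0.16 with adjusted p = 0.0516, again with no overlap between the groups.

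**Figure D1:**
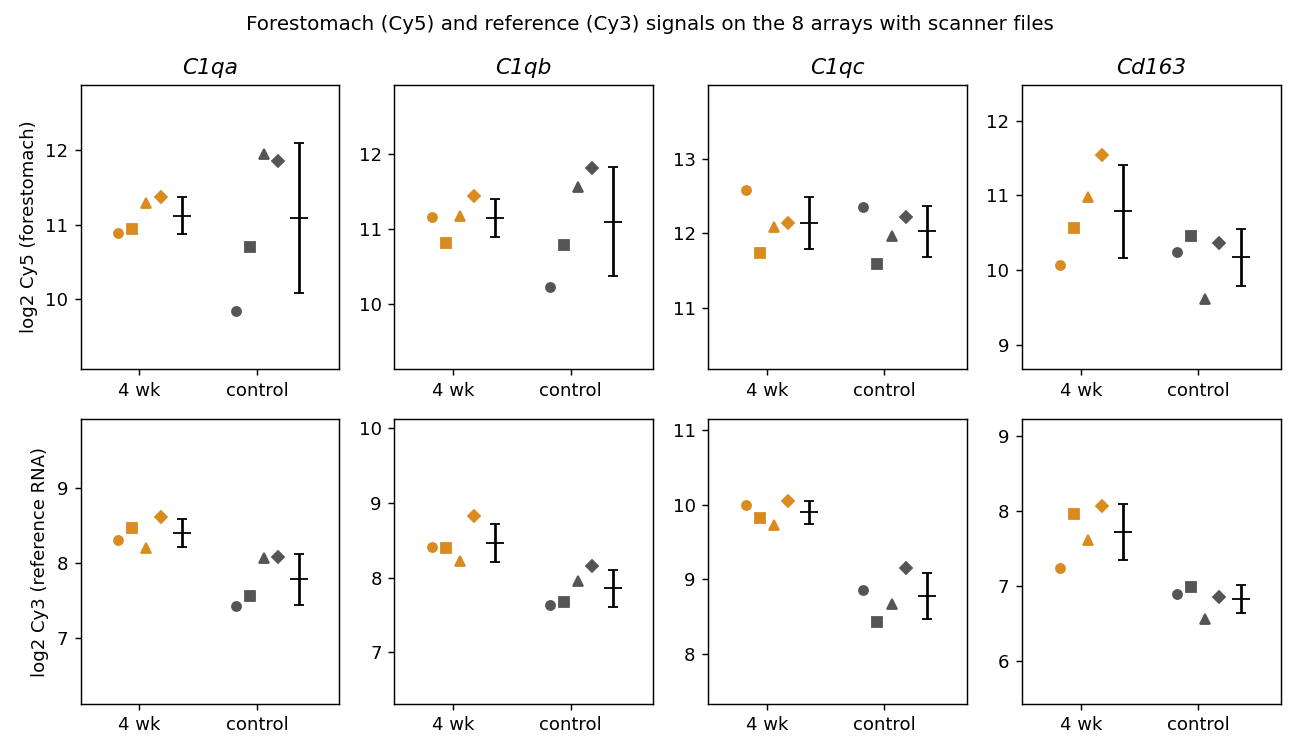
Normalised log2 signals of C1qa, C1qb, C1qc and Cd163 on each of the 8 arrays with scanner files, Cy5 (forestomach RNA) and Cy3 (common reference RNA) apart, with 4-week arrays left of control arrays; points are arrays. Cy5 signals of the groups overlap in all 4 genes, while Cy3 signals of the 4-week arrays lie above those of the control arrays.

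Over the 13 member probes the median change of the ratio at 4 weeks was -0.21, and 2 probes had groups that did not overlap, against 11.7% of all kept probes. Besides C1qc the other was Cd68, a lysosomal membrane glycoprotein of phagocytes. Cd68 had ratios of -1.39, -1.49, -1.51 and -1.05 in 4-week samples, against -1.75, -1.76, -1.55 and -1.98 in control samples, a difference of 0.40 ± 0.14 with adjusted p = 0.202. Emr1, which encodes an adhesion receptor used as a marker of mouse macrophages, had ratios of 0.12, -0.66, -0.73 and -0.26 in 4-week samples, against 0.71, 0.05, 0.30 and 0.18 in control samples. Control replicate 2 lay just below 4-week replicate 1, and the change of -0.69 ± 0.22 had adjusted p = 0.158. Its Cy5 signal changed by -0.70 ± 0.22 and its Cy3 signal by -0.02 ± 0.09, so in Emr1 the difference lay in the forestomach channel, though it did not pass the test there either (adjusted p = 0.188).

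Of the scavenger receptors, Cd163 passed the test in Cy3 alone and Mrc1 in neither channel. Cd163, the receptor for haemoglobin bound to haptoglobin, had ratios of 4.00, 3.93, 4.47 and 4.45 in 4-week samples, against 3.93, 4.78, 4.30 and 4.66 in control samples. The groups overlapped and the change was -0.21 ± 0.22 (adjusted p = 0.661). Its Cy5 signal was at 0.62 ± 0.31 (adjusted p = 0.376), whereas its Cy3 signal was higher by 0.90 ± 0.18 (adjusted p = 0.0197). Cd163 was dim in Cy3, with 85.3, 187, 120 and 179 intensity units above local background on 4-week arrays, against 76.6, 72.7, 36.7 and 66.0 on control arrays. Mrc1, the mannose receptor, had ratios of 4.16, 3.44, 3.71 and 4.19 in 4-week samples, against 3.64, 4.27, 3.55 and 3.61 in control samples. These overlapped, and neither the ratio (0.11 ± 0.22, adjusted p = 0.841) nor either channel passed the test.

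Tyrobp, an adaptor that carries the activating motif for many myeloid receptors, had ratios of -0.42, -0.43, -0.83 and -0.38 in 4-week samples, against -0.54, -0.59, 0.15 and 0.16 in control samples. The controls fell into a low and a high pair on either side of most 4-week values, and the change of -0.31 ± 0.21 had adjusted p = 0.479. Fcgr3, a low-affinity receptor for IgG, had changes of -0.18 ± 0.25 and -0.22 ± 0.28 on its 2 probes. Fcgr3 is closely related to Fcgr2b and Fcgr4, and how far its probes also read those transcripts was not tested. Csf1r, the receptor for CSF1 and IL34, had changes of 0.08, -0.04 and 0.10 on its 3 probes, with adjusted p of at least 0.809. In Cy5 alone none of the 13 member probes passed limma's test, and percent called over all probes was 0.187%. Under an unadjusted p of 0.05 by that test were 2 member probes, beside 4856 of all 30450 kept probes. In Cy3 alone 3 of 13 passed, C1qb, C1qc and Cd163, all higher, beside a percent called of 7.12%, of which 4.87% higher.

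**Figure D2:**
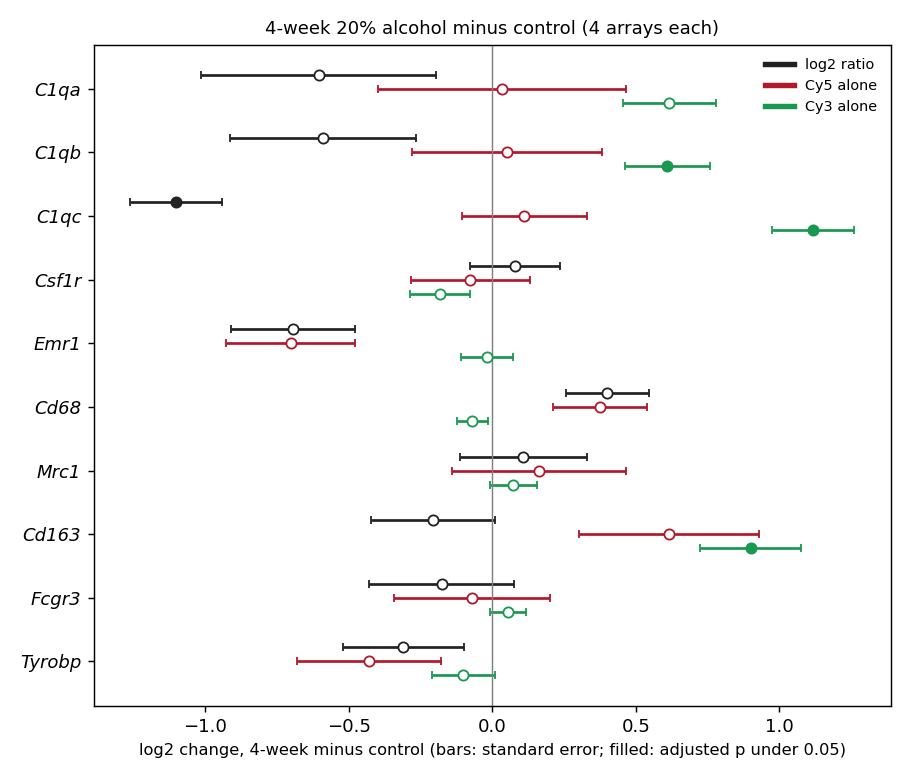
Log2 change, 4-week minus control, of the brightest kept probe of each member gene in the Cy5 over Cy3 ratio, in Cy5 alone and in Cy3 alone, with standard errors. Filled points have limma's adjusted p under 0.05. C1qc is filled in the ratio (-1.10) and in Cy3 (1.12) and lies near 0 in Cy5 (0.11).

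The 40-week samples were compared through the deposited log2 ratios of Cy5 over Cy3. On these values 11 of 13 member probes differed between 40-week and control samples, 10 lower and 1 higher (7 lower and 0 higher after every column was scaled to 1 spread), where percent called over all kept probes was 42.2%, with 18.1% higher and 24.2% lower. This comparison shares its controls with the one at 4 weeks. The median change of the member probes was -1.19. In 10 probes the groups did not overlap, against 41.7% of all probes. The 40-week scanner files were not analysed here, so Cy5 and Cy3 cannot be set apart for this group.

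On the deposited scale all 3 C1q chains had their lowest ratios in 40-week samples. With columns scaled to 1 spread, C1qa and C1qc were not below 4-week samples (0.06 and 0.36), and C1qa lost its call against controls (-0.64, adjusted p = 0.093). C1qa had deposited log2 ratios of 4.10, 5.01, 5.71 and 5.39 in control samples, 4.17, 4.06, 4.71 and 4.24 in 4-week samples, and 2.38, 2.83, 3.08 and 3.00 in 40-week samples. C1qb had 4.22, 4.95, 5.44 and 5.27 in control samples, 4.33, 4.02, 4.57 and 4.09 in 4-week samples, and 1.86, 1.98, 2.58 and 2.39 in 40-week samples. C1qc had 4.98, 4.78, 4.96 and 4.50 in control samples, 3.87, 3.30, 3.74 and 3.42 in 4-week samples, and 2.41, 2.64, 2.54 and 2.78 in 40-week samples. In all 3 genes every deposited 40-week value lay below every other value. Against controls C1qa fell by 2.23 ± 0.30 on the log2 scale, with means of 2.82 ± 0.31 in 40-week samples and 5.05 ± 0.69 in control samples (SD, n = 4 each; adjusted p = 0.000151). C1qb changed by -2.77 ± 0.26 (adjusted p = 9.36e-06) and C1qc by -2.21 ± 0.16 (adjusted p = 2.2e-06).

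Emr1 and Csf1r, surface receptors of resident macrophages, differed by less than the C1q genes on the deposited scale. With columns scaled to 1 spread this order did not hold. Emr1 was then at -1.96 against controls, and C1qb, C1qc and C1qa were at -1.40, -0.75 and -0.64. Emr1 had deposited ratios of 0.73, 0.07, 0.32 and 0.20 in control samples, 0.15, -0.66, -0.71 and -0.23 in 4-week samples, and -1.47, -1.60, -0.87 and -1.12 in 40-week samples. All 40-week values were the lowest, and the change against controls was -1.60 ± 0.23 (adjusted p = 0.000233), or 3.02-fold lower. The second, dim Emr1 probe, which was not tested, averaged -0.78 ± 0.13 in 40-week samples and -1.14 ± 0.33 in control samples, the other direction. Csf1r had 0.17, 0.02, 0.00 and 0.52 in control samples, 0.33, -0.03, 0.52 and 0.31 in 4-week samples, and -0.69, -0.52, -0.14 and -0.32 in 40-week samples on its brightest probe. Its change against controls was -0.59 ± 0.17 (adjusted p = 0.0154). Of its other probes, 1 passed at -0.60 (adjusted p = 0.0462) and 1 did not at -0.47 (adjusted p = 0.0821). The other probe that passed was dim. Its Cy5 signal above local background was 11.7 to 40.4 intensity units on 4-week arrays and 33.3 to 55.5 on control arrays. Leaving out single samples moved the Csf1r calls across the threshold, with adjusted p of up to 0.0510 on the brightest probe and up to 0.113 on the other called probe.

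The scavenger receptors were high in every group. Cd163 had 5.33, 5.72, 5.65 and 5.71 in control samples, 4.85, 4.37, 5.21 and 5.09 in 4-week samples, and 3.41, 3.59, 3.43 and 3.68 in 40-week samples. Mrc1 had 4.97, 5.32, 4.49 and 4.65 in control samples, 5.04, 4.55, 4.90 and 5.67 in 4-week samples, and 3.31, 3.60, 4.02 and 3.76 in 40-week samples. Both had their lowest values in 40-week samples. Cd163 changed by -2.07 ± 0.18 against controls (adjusted p = 5.33e-06) and Mrc1 by -1.19 ± 0.25 (adjusted p = 0.00304), but with columns scaled to 1 spread Cd163 was at -0.22 and lost its call (adjusted p = 0.442), and the direction of Mrc1 turned (0.62). In the deposited values Cd163 was also lower in 4-week than in control samples, by -0.72 ± 0.18 (adjusted p = 0.0392), where percent called was 5.3%, of which 3.04% lower, and C1qc, at -1.22 (adjusted p = 0.00481), was the only other member called. The scanner ratio of Cd163 had not passed.

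Cd68 moved the other way and Tyrobp did not pass the test. Cd68 had deposited ratios of -1.78, -1.76, -1.55 and -1.995 in control samples, -1.37, -1.48, -1.50 and -1.03 in 4-week samples, and -1.17, -1.20, -1.09 and -1.11 in 40-week samples. Its 40-week samples lay within a narrow range above all controls, and it rose by 0.63 ± 0.14 (adjusted p = 0.00339), or by 0.04 and short of the threshold when columns were scaled to 1 spread. Tyrobp had -0.54, -0.57, 0.17 and 0.19 in control samples, -0.39, -0.41, -0.81 and -0.35 in 4-week samples, and -0.80, -0.89, -0.05 and -0.09 in 40-week samples. The 40-week samples spread as widely as the controls, and the change was -0.27 ± 0.25 (adjusted p = 0.407). Fcgr3 had 1.33, 1.91, 1.94 and 2.33 in control samples, 1.45, 1.46, 1.65 and 2.36 in 4-week samples, and 0.44, 0.44, 1.23 and 1.13 in 40-week samples on its brighter probe. It changed by -1.07 ± 0.28 (adjusted p = 0.0087) on this probe and by -1.79 ± 0.30 (adjusted p = 0.000671) on the other, a gap between probes that were meant for 1 gene. Without control replicates 3 and 4 and 4-week replicate 2, which held other organs' transcripts, the brighter probe was at -0.81 and no longer passed (adjusted p = 0.0772).

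**Figure D3:**
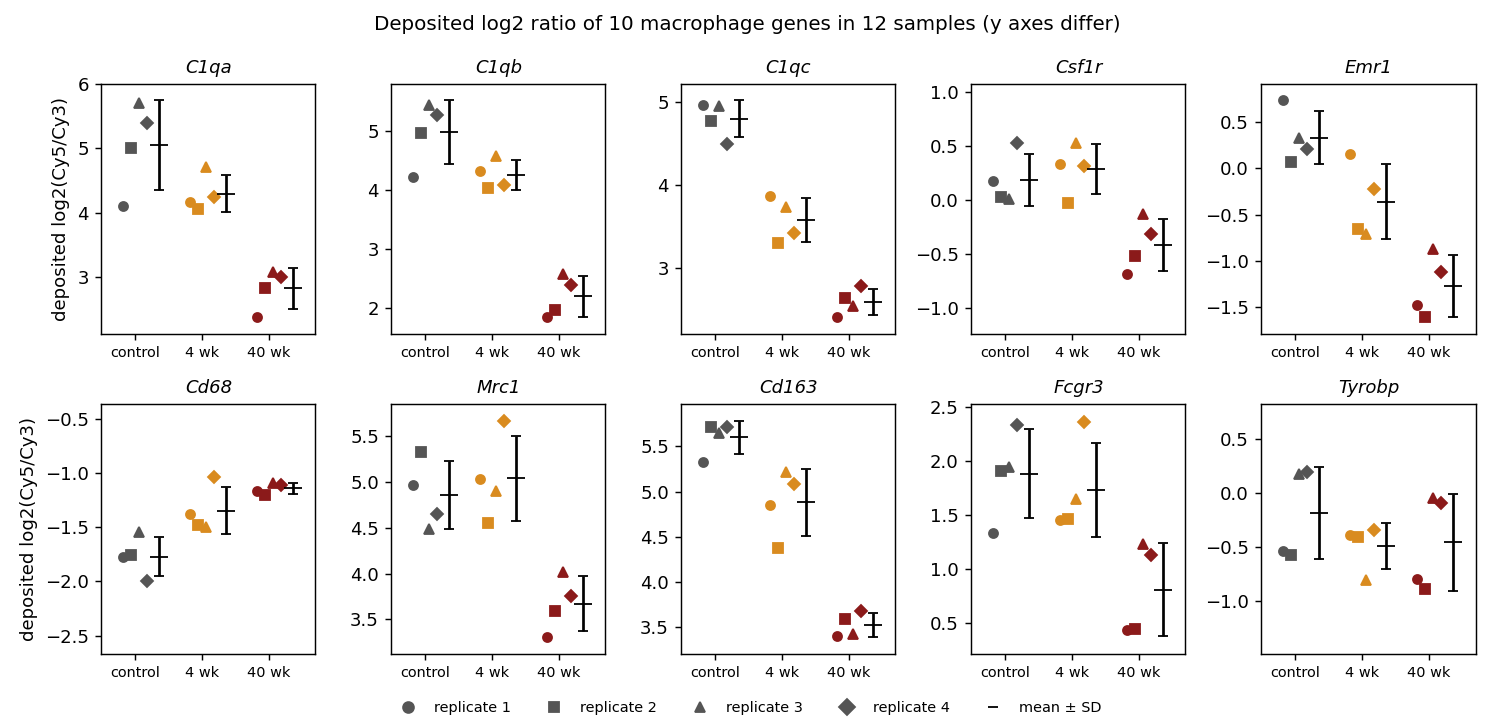
Deposited log2 ratio of Cy5 over Cy3 for the brightest kept probe of each of the 10 genes in the 12 samples, by weeks of alcohol (control, 4-week, 40-week), with replicate markers and the mean ± SD of each group of 4. On this deposited scale the 40-week samples lie lowest in C1qa, C1qb, C1qc, Csf1r, Emr1, Mrc1, Cd163 and Fcgr3, above controls in Cd68, and overlap the other groups in Tyrobp.

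The deposited 40-week columns had a narrower spread than the others. Their median absolute deviation over probes was 0.655 to 0.725, against 0.987 to 1.16 in the 8 other samples. Probes with a high ratio in the forestomach were lower in 40-week samples in general, whatever their gene. Among the 912 kept probes with a mean 4-week ratio of at least 4, the median change, 40-week minus control, was -2.14, and 94.5% were called. C1qa (-2.23), Cd163 (-2.07) and C1qb (-2.77) are in that bin, as is Mrc1 (-1.19), which was less far below control than the median probe of its bin. C1qc, at -2.21, is in the bin of ratios from 3 to 4, with a median of -1.31 over 871 probes. Emr1, at -1.60, lies far from the median of 0.11 over the 8830 probes with ratios from -1 to 0, as does the brightest Csf1r probe, at -0.59, from -0.24 over the 9787 probes with ratios from 0 to 1, by less. Cd68, at 0.63, is near the median of 0.60 of the 3427 probes with ratios from -2 to -1.

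**Figure D4:**
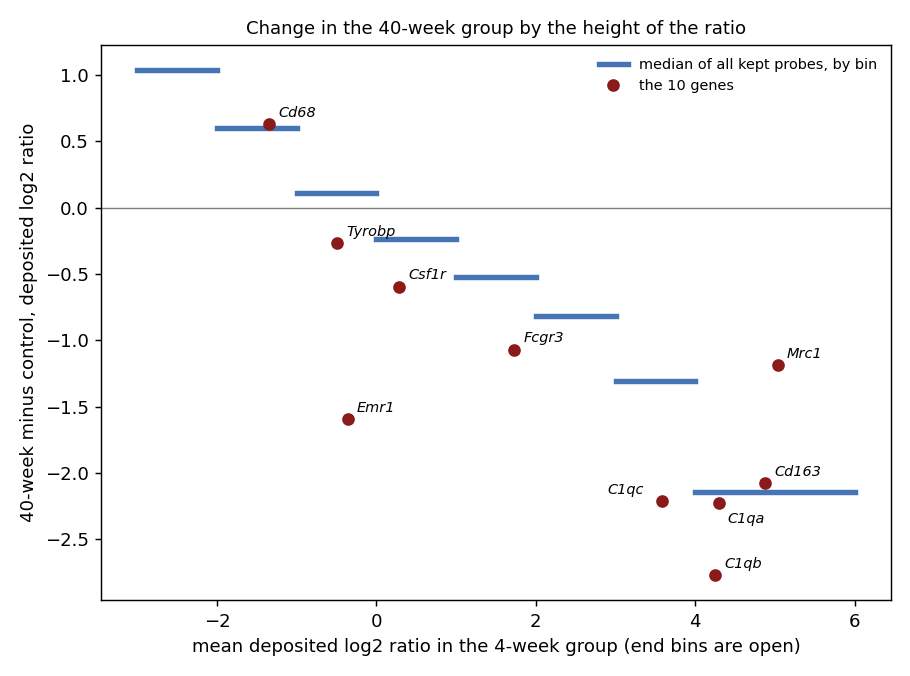
Log2 change, 40-week minus control, of the brightest kept probe of each member gene against its mean deposited ratio in 4-week samples, with the median change of all kept probes in each bin of that ratio. C1qa and Cd163 lie near the median of their bin (-2.14), Cd68 near its own (0.60), and Emr1 at -1.60 lies well below its bin's median of 0.11.

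When every deposited column was scaled to the same median absolute deviation, 7 of 13 member probes differed between 40-week and control samples, all lower, beside a percent called of 39%, of which 20.2% lower. Emr1 then changed by -1.96 ± 0.23 (adjusted p = 0.000106), and the 3 Csf1r probes had changes of -0.70, -0.75 and -0.63 (adjusted p = 0.00725, 0.00989 and 0.0251). C1qb changed by -1.40 ± 0.27 (adjusted p = 0.00183) and C1qc by -0.75 ± 0.19 (adjusted p = 0.00793), each less than on the deposited scale. The second Fcgr3 probe, at -1.63, kept its call (adjusted p = 0.00172). C1qa, at -0.64 (adjusted p = 0.093), Cd163, at -0.22 (adjusted p = 0.442), and the brighter Fcgr3 probe, at -0.56 (adjusted p = 0.147), did not pass. Cd68 was at 0.04 (adjusted p = 0.851) and Mrc1 had turned to 0.62 ± 0.34 (adjusted p = 0.17). The size of the 40-week difference, and for Mrc1 its direction, therefore depended on the scale. Emr1, C1qb, C1qc, the brightest Csf1r probe and the second Fcgr3 probe were lower and called on both scales. C1qa, Cd163 and the brighter Fcgr3 probe were lower on both but called only as deposited.

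**Figure D5:**
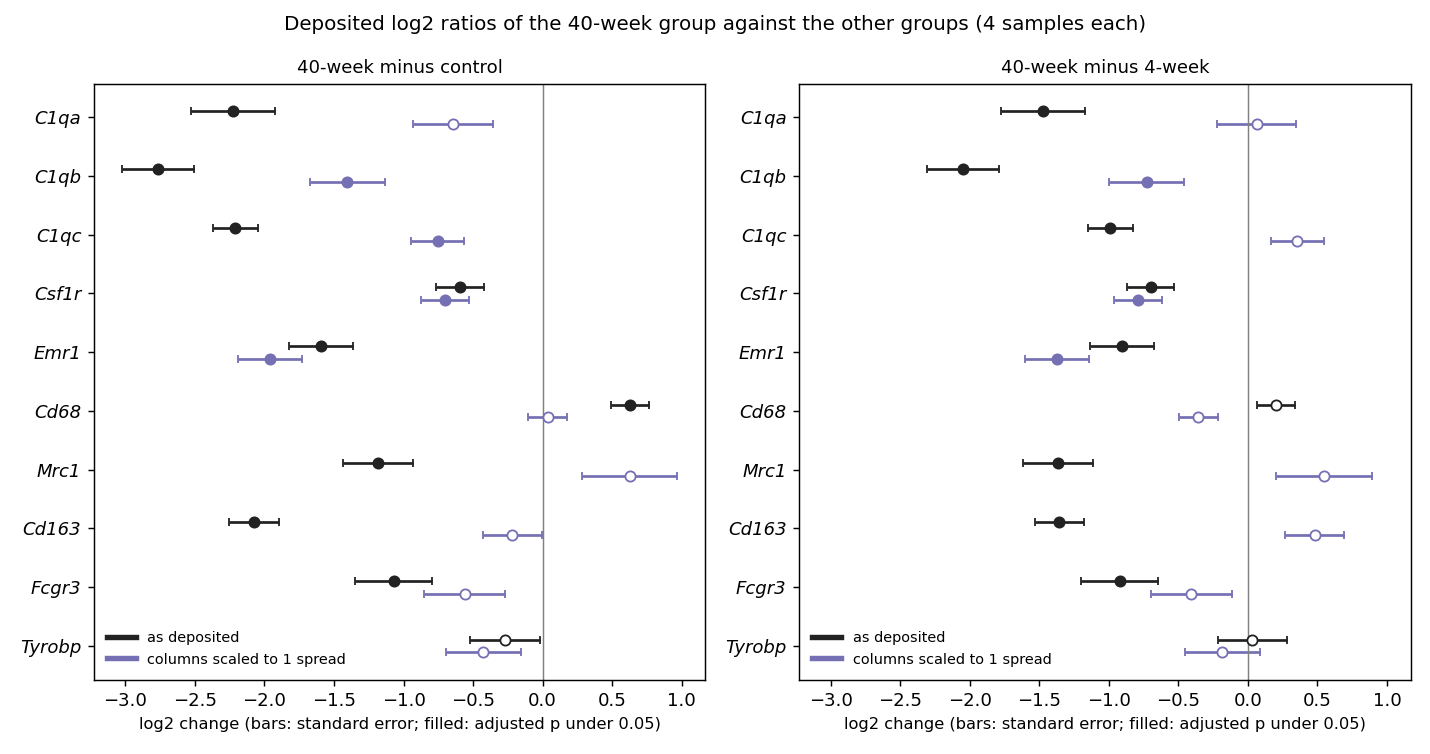
Log2 change with standard error of the brightest kept probe of each member gene, 40-week minus control and 40-week minus 4-week, on the deposited ratios and after scaling every column to 1 spread. Filled points have limma's adjusted p under 0.05. Emr1 is lower and called in all 4 cases, while Cd163 against controls is at -2.07 as deposited and at -0.22 after scaling.

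Between the alcohol groups, 40-week samples had lower deposited ratios than 4-week samples in 10 of 13 member probes, beside a percent called of 43%, of which 24.7% lower. The median change of the member probes was -0.92. This comparison and the one with controls share the 40-week samples. C1qb had the largest change, -2.05 ± 0.26 (adjusted p = 0.000138), and C1qc one of -0.99 ± 0.16 (adjusted p = 0.000677), with C1qa between them at -1.47 ± 0.30 (adjusted p = 0.0024). Mrc1 was at -1.37 ± 0.25 (adjusted p = 0.00133), Emr1 at -0.91 ± 0.23 (adjusted p = 0.00789) and the brightest Csf1r probe at -0.70 ± 0.17 (adjusted p = 0.00649). Cd68, at 0.20, and Tyrobp, at 0.03, did not pass. After scaling, 6 of 13 were called, all lower, beside 42.6% of all probes, of which 21.5% lower: the 3 Csf1r probes, Emr1 at -1.37 (adjusted p = 0.000689), C1qb at -0.73 (adjusted p = 0.0463) and the second Fcgr3 probe at -1.49 (adjusted p = 0.00253). C1qa was then at 0.06, C1qc at 0.36, Cd163 at 0.48 and Mrc1 at 0.55, none of them past the threshold. As deposited, the 1112 kept probes with a mean control ratio of at least 4 had a median change of -1.40, and 87.9% were called. C1qa, C1qb, C1qc, Cd163 and Mrc1 are in that bin. Emr1 and the brightest Csf1r probe are in the bin of ratios from 0 to 1, with a median of -0.21 over 9785 probes.

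Within the groups the C1q genes did not all vary together. After each group's mean was removed, the deposited ratios of C1qa and C1qb had a correlation of 0.95 over 12 samples, and their Cy5 signals one of 0.96 over 8 arrays. C1qc had 0.05 with C1qa and 0.11 with C1qb on the ratios, and -0.12 and 0.09 in Cy5. With the group means kept in, the correlations were 0.98 for C1qa with C1qb, 0.87 for C1qa with C1qc and 0.89 for C1qb with C1qc. Control replicate 1 shows the split: in the deposited ratios it had the lowest C1qa and C1qb of its group and the highest C1qc. That C1qc value was only just above the one of control replicate 3. In normalised Cy5 control replicate 1 again had the highest C1qc of the controls, but in the scanner ratio control replicate 3 had it (4.72). C1qb and Tyrobp had 0.63 on the ratios and 0.88 in Cy5, and C1qc and Emr1 had 0.43 and 0.74. These values describe 12 samples that share arrays, RNA and normalization. In the 40-week group, replicates 3 and 4 were above replicates 1 and 2 in C1qa, C1qb, Csf1r, Emr1, Cd68, Mrc1, Fcgr3 and Tyrobp, and the leukocyte gene Ptprc was at -2.56 and -2.25 there, against -4.12 and -4.10 in replicates 1 and 2. These are the replicates with low Y-chromosome genes, and the labels give no sex. Without them C1qb was at -3.05, Emr1 at -1.87 and Tyrobp at -0.66 (adjusted p = 0.0959) against controls. In that setting 10 of 13 member probes were called, beside 7058 of all 30450 kept probes.

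The genes whose deposited ratios followed the mean of the 3 C1q genes most closely over the 12 samples were Ppp1r1a (r = 0.993), Mcpt4 (0.992), Fabp4 (0.992), H2-Eb1 (0.991), H2-Aa (0.990), Trex2 (0.990), 2210020M01Rik (0.990) and Trim29 (0.989). Over the 16765 genes ranked, the median r was 0.19 and 5.23% were above 0.9. Mcpt4 is a mast cell protease, Fabp4 a lipid carrier of adipocytes and some macrophages, and H2-Eb1 and H2-Aa are chains of MHC class II, which presents antigen. In Cy5 alone over 8 arrays, the class II genes kept correlations of 0.86 and 0.83 and Trex2 had 0.72, whereas Ppp1r1a had -0.02 and Trim29 0.01. The ratios of all 12 samples include the group differences and the narrower 40-week columns. The Cy5 values leave out the 40-week columns but keep the difference between the other alcohol group and the controls. They are therefore not correlations within groups.

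Other genes of the pathways were read from lists. Of 19 measured genes of the classical complement pathway and its regulators, 2 were higher and 6 lower in 40-week than in control samples, with a median change of -0.59, against -0.09 over all 20689 genes, of which 3823 were higher and 4932 lower. After scaling 2 of the 19 were higher and 2 lower, and the median had the other sign, 0.31. Over all genes it was then -0.04, with 4002 higher and 3857 lower. Serping1, the inhibitor of the C1 proteases, had deposited ratios of 5.48, 5.55, 5.68 and 5.11 in control samples, 4.64, 3.96, 4.36 and 4.26 in 4-week samples, and 2.31, 2.71, 2.42 and 2.60 in 40-week samples. Like C1qc it separated the groups without overlap, with -2.94 against controls at 40 weeks (adjusted p = 8.58e-07) and -1.43 after scaling (adjusted p = 0.000401). At 4 weeks its scanner ratio fell by 1.05 (adjusted p = 0.0439), with a Cy5 change of 0.63 (adjusted p = 0.164) and a Cy3 change of 1.50 (adjusted p = 0.00137). It was the 1 gene of the 19 called in the ratio at 4 weeks, on scanner and deposited values alike. C6, a component of the lytic complex, was at -1.02, and Cd55, which protects cells from complement, at -1.40, of which C6 kept its call after scaling (-0.76) and Cd55 did not (0.32). Calr, a chaperone that also binds C1q, rose by 0.61 (adjusted p = 0.0147).

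Of 14 CSF1 receptor ligands and myeloid transcription factors, 1 was higher and 4 lower at 40 weeks against controls (median -0.11), beside the 42.2% of all kept probes called. After scaling 1 was higher and 0 lower by limma's test, with a median of 0.09, beside 39% of all kept probes called. None passed at 4 weeks in the scanner ratio. In the deposited values 1 was lower at 4 weeks, Csf2ra at -0.65 (limma's adjusted p = 0.038), beside 5.3% of all kept probes called. Csf1, the ligand of the CSF1 receptor, was higher by 0.81 (adjusted p = 0.00505) while the receptor's own ratios were lower, though after scaling Csf1 was at 0.10 and did not pass. Cebpa, a myeloid and epithelial factor, was at -1.30 and did not pass after scaling. Of 12 Fc receptors and adaptor partners of Tyrobp, 1 was higher and 1 lower (median -0.40), beside the same 42.2% of all kept probes. After scaling 0 were higher and 2 lower (median -0.50), beside 39%. Trem2, a lipid receptor that signals through Tyrobp, was higher by 1.04 (adjusted p = 0.00403), and at -0.10 after scaling did not pass. Cd300lb, another receptor that pairs with Tyrobp, changed by -0.78 and kept its call after scaling (-0.99, adjusted p = 0.0016).

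Of 33 other macrophage genes, 2 were higher and 16 lower at 40 weeks against controls, with a median of -0.53. After scaling 5 were higher and 12 lower, with a median of -0.14. Over all 20689 genes 3823 were higher and 4932 lower as deposited, and 4002 higher and 3857 lower after scaling. These shares also apply to the 40-week counts of other cells below. Folr2, a folate receptor of resident macrophages, was at -2.46 (-1.13 after scaling, adjusted p = 0.00147). Apoe, a lipid carrier that macrophages and other cells make, was at -2.68 (-1.04 after scaling, adjusted p = 0.00204). Cx3cr1, the fractalkine receptor, was at -1.89 (-1.22 after scaling, adjusted p = 0.000531). These 3 fell on both scales. Lyve1, carried by perivascular macrophages and lymphatic vessels, was at -1.23 and at 1.45, higher, after scaling (adjusted p = 0.000415). At 4 weeks none of the 33 passed in the scanner ratio, with a median of -0.24, against -0.02 over all genes. In the deposited values 1 was lower, Apoe at -1.235 (limma's adjusted p = 0.0113), beside 5.3% of all kept probes called. In Cy3 alone 3 were higher, beside 4.87% of all kept probes. Of markers of other cells, 14 of 14 squamous epithelium genes were lower at 40 weeks (median -2.19), as were 10 of 10 smooth muscle genes (median -1.70), and after scaling 7 and 3 of them stayed lower while 2 and 1 were higher. Of 12 dendritic cell genes 6 were lower (median -0.68), and 4 were after scaling (median -0.39). Of 8 pan-leukocyte genes 2 were higher and 1 lower (median 0.29), whereas after scaling 0 were higher and 2 lower, with a median of -0.0037. The part of these cells in the member genes' ratios was not tested.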

How the data were processed

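RNA of 4 control, 4 4-week and 4 40-week forestomachs was measured on two-colour arrays. The deposited scanner files of the 8 control and 4-week arrays gave mean spot and median background signals as intensity, and flags (other values of 0 or 1) that mark spots as saturated, outlying or well above background, per the file headers. Version 10.7.3.1 of Agilent Feature Extraction stands in the headers and version 9.1 in the submitters' processing notes. The 40-week arrays were used only through the authors' deposited value table, which holds log2 ratios of Cy5 over Cy3. Its scale was found from the 8 other arrays, where background-subtracted log2 ratios minus a smooth curve over intensity matched it within 0.05 for 99.5% to 99.8% of probes with both channels above background. This check was not possible for its 40-week columns. No member probe held an exact 0 there. Column medians ran between 0.00 and 0.07.

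Signals were corrected with normexp (offset 50) and loess within arrays for the ratio, and each channel alone was quantile-normalised over the 8 arrays, with limma 3.58.1 in R 4.3.3. Control spots had weight 0 and outlier spots were left out. Probes were kept if 3 or more of the 4 arrays of a group had Cy5 well above background. The filter read no 40-week array. Tests were limma's lmFit and eBayes over all 30450 kept probes, with Benjamini-Hochberg adjustment and a threshold of 0.05, and the code was tested on simulated data. For 40-week samples all 12 samples shared 1 estimate of the spread. Arrays carry no counts, and their number limits the precision. Probe levels are not compared between genes. The members and lists were chosen with earlier results of these data known. All member probes are named, and of the lists at most the 4 called genes of smallest adjusted p. Alternatives covered background, normalization, scaling, filters, exact zeros, 1 probe per gene, the replicate block and left-out arrays.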

Additional observations from a re-analysis of the deposited data

Results flagged for a closer look

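Over 70 groups of 4 values of member probes, 4 held 1 sample far from the other 3 by Dixon's test. Chance gives this in about 1 in 20 groups. The C1qa ratio was 4.22 in 4-week replicate 3, with the other 4-week samples at 3.76 to 3.77. The Tyrobp ratio was -0.83 in the same replicate, one of the 2 low in adipocyte genes, with the others at -0.43 to -0.37. The Mrc1 ratio was 4.27 in control replicate 2, with the others at 3.55 to 3.64. The Cy5 signal of Emr1 was 11.11 in 4-week replicate 1, with the others at 10.32 to 10.40.

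A further 10 member probes differed between the alcohol groups, 40-week minus 4-week, by limma's test of that difference on the deposited ratios. Over all kept probes 43% were called, of which 24.7% lower. The changes were -2.05 for C1qb, -1.47 for C1qa, -0.99 for C1qc, -1.36 for Cd163, -1.37 for Mrc1, -0.91 for Emr1, -0.92 and -1.64 for the Fcgr3 probes, and -0.70 and -0.60 for the brightest and the middle of the 3 Csf1r probes. For C1qa, C1qc, Cd163 and Mrc1 the sign turned when columns were scaled to 1 spread.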

How the results depend on the processing

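Emr1, Csf1r, C1qb and C1qc were lower in 40-week than in control samples under every alternative tried. So were C1qa, Cd163 and both Fcgr3 probes. C1qa, Cd163 and the brighter Fcgr3 probe lost their calls under some alternatives, with limma's adjusted p of up to 0.093, 0.442 and 0.147. The brightest and the dimmest Csf1r probe did too, with limma's adjusted p of up to 0.0510 and 0.168. The middle Csf1r probe was not called in the main test. With every column scaled to the same spread, 7 member probes were called against controls and 6 against 4-week samples, beside 39% and 42.6% of all kept probes. The C1qc ratio at 4 weeks kept its direction under every alternative, between -1.25 and -0.70, but its call rests on all 8 arrays. The 40-week ratios could not be split by channel, and slide and treatment coincided on the other arrays. Signal over background limits the dim probes, Cd163 and Mrc1 in Cy3 and the second Emr1 probe and the dimmest Csf1r probe in Cy5. The causes of the changes below were not tested, apart from fewer samples or probes where a setting left some out.

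For the ratio at 4 weeks, 27 probes were called with a normexp offset of 10, 610 with no background correction, 652 with the scanner software's processed signals, 1615 with the deposited values and 393 without the 3 arrays that held other organs' transcripts. There were 0 with median centring, 0 with arrays scaled to 1 spread and 0 without the 2 arrays low in adipocyte genes, an alternative chosen after seeing the data, where the main test by limma called 230 and 5415 were under an unadjusted p of 0.05. Member probes called numbered 0 with the offset of 10, with median centring, with the scaling and without either set of arrays, and 2 with the deposited values. C1qc was then at -1.15 (adjusted p = 0.0532) with the offset of 10, -1.04 (0.0502) without the arrays with other organs' transcripts, -1.12 (0.113) without those low in adipocyte genes, -1.25 (0.0899) with median centring and -0.70 (0.302) with the scaling. Leaving out 1 array at a time gave 0 to 22 probes and 0 to 0 member probes, and C1qc between -1.21 and -1.02.

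The replicate numbers did not pair the samples: same-numbered samples had correlations of -0.41 to 0.42 between their deviations over 12 pairs, and other pairs -0.47 to 0.62 over 36. With the replicate number as a block, 0 probes and 0 member probes were called for the ratio at 4 weeks, C1qc being at -1.10 (adjusted p = 0.091), 0 for Cy5 and 1389 for Cy3.

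For Cy5 alone the counts were 97 with an offset of 10, 90 without the filter on dim probes, 8 with scaling to the 75th percentile, 0 without the arrays with other organs' transcripts, 3 without those low in adipocyte genes and 0 to 10 with 1 array left out, against 57. No member probe was called in any of them. For Cy3 alone they were 351 without the arrays with other organs' transcripts, 1294 without those low in adipocyte genes, 519 with the 75th percentile and 684 to 2958 with 1 array left out. Member probes called in Cy3 numbered 1 without the arrays low in adipocyte genes, 1 with the 75th percentile, and 1 to 4 with 1 array left out.

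Without 40-week replicates 3 and 4, 7058 probes were called against controls and 7151 against 4-week samples, and with 1 probe per gene 8593 were called in the second comparison. Leaving out 1 sample gave 10429 to 13766 probes and 9 to 11 member probes against controls, and 10871 to 12543 and 8 to 11 against 4-week samples.

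For member probes, changes of sign were all in values that did not pass the test under the alternative. At 4 weeks, without the arrays with other organs' transcripts, the ratio was 0.12 for C1qa, 0.021 for Tyrobp, 0.16 for Fcgr3 and 0.12 for its second probe. In Cy5 that setting gave 0.082 for Tyrobp, 0.24 for Fcgr3, 0.00087 for its second probe and 0.12 for Csf1r, and in Cy3 it gave 0.055 for Tyrobp and 0.020 for the middle Csf1r probe. It also gave 0.10 for Tyrobp at 40 weeks against controls. Scaling to 1 spread gave 0.25 for Cd163 and 0.050 for Fcgr3 at 4 weeks, 0.62 for Mrc1 at 40 weeks against controls, and, for 40-week against 4-week samples, 0.36 for C1qc, 0.063 for C1qa, 0.48 for Cd163, 0.55 for Mrc1, -0.36 for Cd68 and -0.18 for Tyrobp. Median centring gave -0.11 for Csf1r, -0.058 for its middle probe and -0.080 for Mrc1 at 4 weeks, and no background correction gave -0.0055 for Mrc1 in the ratio and 0.0095 for the dim Csf1r probe in Cy5. The 75th percentile gave -0.012 for C1qa and 0.20 for the dim Csf1r probe in Cy5. Without the arrays low in adipocyte genes, Cy5 was at -0.43 for C1qa, -0.25 for C1qb and 0.028 for the dim Csf1r probe, the ratio of that probe at 0.020, Cy3 of the middle one at 0.028, and Tyrobp at -0.074 in 40-week against 4-week samples. Tyrobp was there at -0.36 without 40-week replicates 3 and 4.

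With 1 array left out, ranges that crossed 0 in the 4-week ratio were -0.12 to 0.0048 for the dim Csf1r probe and -0.029 to 0.18 for the middle one. In Cy5 they were -0.037 to 0.24 for C1qc, -0.38 to 0.32 for C1qa, -0.24 to 0.29 for C1qb, -0.29 to 0.061 for Fcgr3, -0.27 to 0.042 for Csf1r, -0.054 to 0.038 for its dim probe and -0.021 to 0.43 for Mrc1. In Cy3 they were -0.055 to 0.068 for Emr1, -0.15 to 0.014 for Tyrobp, -0.0014 to 0.12 for Mrc1 and -0.067 to 0.050 for the middle Csf1r probe. For 40-week against 4-week samples Tyrobp ranged between -0.10 and 0.18.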
